A study of Mus musculus with 12 samples.

Results

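The replication-dependent histone genes were followed in 3T3-L1 cells, an established line of mouse preadipocytes that hormones drive to become fat cells. A gene was counted as a member by its symbol in the expression table, which had to name a clustered gene of the linker histone H1 or of the core histones H2A, H2B, H3 or H4, with names marked as pseudogenes left out. This gave 65 of the 55487 genes in the table, namely 5 H1, 19 H2A, 17 H2B, 12 H3 and 12 H4 genes. The cells carried either a scrambled short hairpin RNA (shScram) or one that knocks down Fto, the gene of an m6A demethylase (shFto), and were collected as preadipocytes (Pre), during mitotic clonal expansion (MCE) and at the later differentiation stage (Diff), so that the 12 libraries fell into 6 groups of 2. All groups were 3T3-L1 cells carrying a hairpin, and no untransduced cells were included. Each line had a single group per stage, so a shift in timing cannot be told apart from a change in level. Adipogenesis was started in confluent cells with MDI medium (IBMX, dexamethasone and insulin), followed by medium with insulin alone. Whether the transduced cells were a pool or a clone, which Fto hairpin was used and whether the libraries of a group came from separate cultures is not stated in the sources used here, so p-values measure only the spread between these libraries. Replicate 1 of shScram Diff has labels that disagree: the treatment entry speaks of Fto knockdown, but the title, which was followed here, says shScram. Fto was at 73.5 TPM in this library and at 70.8 TPM in its partner, and the fat cell gene Fabp4 at 876 and 836 TPM, while the shFto libraries of this stage held 7.47 and 7.05 TPM of Fto and 138 and 118 TPM of Fabp4. Values are TPM, in which every library has the same total; these values correct for gene length and keep no sequencing depth.

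Replication-dependent histone genes supply the histones that package newly copied DNA. Their transcription and the stability of their mRNAs are tied to S phase, and the levels fall when replication ends. Unlike other mRNAs of animal cells, most of these transcripts carry no poly(A) tail and end shortly after a conserved stem-loop, which is bound by the stem-loop binding protein Slbp and cut with the help of the U7 snRNP. In 3T3-L1 cells, hormonal induction sends the growth-arrested preadipocytes back into the cell cycle for a short time, the MCE, before they differentiate. H2A and H2B form dimers, H3 and H4 form the tetramer at the core of the nucleosome, and H1 binds the linker DNA between nucleosomes.

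The stem-loop is shown because it is the element that these mRNAs share in place of a poly(A) tail. The transcript models of GENCODE M21 on GRCm38 were searched on their sense strand for a stem-loop of 16 letters, made of the 5′ arm GGNNCT, the loop TNTN and the 3′ arm AGNNCC, with arms of 6 bases complementary to each other. It was found in 42 of the 65 members (3 H1, 10 H2A, 9 H2B, 9 H3 and 11 H4 genes), whereas 61 of 55450 annotated genes (0.11%) had it. The form with the letters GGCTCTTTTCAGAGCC was shared by 24 members of the H1, H2A, H2B and H3 classes, while all 11 H4 genes with the motif had a GGCC or GGTC stem. In the following windows, written 5′ to 3′ from the transcript models, capitals mark the stem-loop and lower case the 5 bases on either side.
H1f2: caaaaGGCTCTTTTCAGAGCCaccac
H2ac18: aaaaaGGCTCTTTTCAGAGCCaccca
H2bc12: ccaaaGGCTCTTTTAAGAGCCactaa
H3c15: acaaaGGCTCTTTTCAGAGCCaccac
H4c9: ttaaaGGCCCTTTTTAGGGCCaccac
H4c11: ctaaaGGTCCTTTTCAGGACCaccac
H4c8: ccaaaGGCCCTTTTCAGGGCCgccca
The model of 23 members ended within 100 bases of the motif. In the other 19 it ran further, by 840 bases in H1f2 and by 330 bases in H4c9. A missing match says only that these letters are not in the model, since many models, such as that of H2ac13, end near the coding sequence.

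Of the genes described most, H4c9 is at chr13:22040636-22041362 (minus strand), H2bc12 at chr13:22035870-22036345 (plus), H1f2 at chr13:23738808-23740367 (plus), H3c11 at chr13:21782960-21783370 (minus), H2ac13 at chr13:21716422-21716814 (plus) and H3c15 at chr3:96238108-96239127 (minus), all on GRCm38. In this build, 54 members lay in a cluster at chr13:21715763-23934851 and 10 in a cluster at chr3:96219865-96270132. Hist1h2al lay apart from both at chr13:51202727-51203065 and is a processed pseudogene in GENCODE M21. H2ac14 is an unprocessed pseudogene there, and the other 63 are protein-coding. Members resemble each other closely, which limits how far reads can be told apart. Of the 50-base stretches of a member's transcripts, a median of 53.6% also occurred in transcripts of another gene, and 34 members shared 50% or more. The median was 78.9% for H2A, 62.0% for H3, 49.7% for H2B, 39.9% for H4 and 2.25% for H1 genes. H1f1, H1f5 and H2bc21 shared none, and H1f2 shared 8.54%. The neighbouring genes Hist1h4m and Hist1h4n shared 89.8% and 85.6%. H3c14 was wholly contained in the noncoding transcript Gm20634, which also held 89.4% of the stretches of H2ac18 and 65.5% of those of Hist1h2al. The values of individual H2A and H3 genes, of Hist1h4m and Hist1h4n, and of these overlapping genes are therefore uncertain. No source used here says whether reads were assigned by strand.

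Fto was at 52.7 to 73.5 TPM in the 6 shScram libraries and at 5.51 to 7.47 TPM in the 6 shFto libraries. The fibroblast genes listed were at 71.5 TPM or more in every library, and the macrophage genes were at 3.04 TPM or less, with Adgre1 at 0 throughout. Endothelial genes reached at most 0.495 TPM and testis genes 1.36 TPM. The libraries of a group correlated across genes, on the log2(TPM + 1) scale, at 0.990 to 0.993, except those of shScram preadipocytes at 0.939. Replicate 1 of shScram preadipocytes stood apart with GC content, since its log2 difference from the mean of the other libraries had a Spearman rho of -0.64 with GC over 15928 genes, against -0.18 to 0.34 for every other library. The tested histone genes had a median GC content of 59.0%, compared with 49.4% for all genes tested. The main counts that rest on this library are also given without it.

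Of the 65 members, 60 reached 1 TPM in some library and 10 did so in all 12. In shScram cells, 11 and 19 members reached this level in preadipocytes, 51 and 46 at MCE, and 28 and 27 at Diff. In shFto cells the numbers were 32 and 33, 59 and 58, and 46 and 47. Over the same libraries, genes of the whole table at this level ranged only from 12934 to 14542. The highest group mean was that of shFto cells at MCE for 60 members and that of shScram cells at MCE for the other 4 members above 0. The members below 1 TPM everywhere were H2ac1, H2bc1, H2ac8, H2ac19 and H2ac21, of which H2ac1, a testis-type H2A gene, was listed at 0 in all 12 libraries. H1f1, H2bc18, H3c1, H3c3 and H3c13 reached 1 TPM only in shFto cells at MCE. They passed the filter for testing, which asked for 1 TPM in 2 libraries or more, through that group alone. H4c3, H3c7, H2bc7 and H2bc14 reached it elsewhere in fewer than 2 libraries. These 9 members would have failed the filter without the shFto libraries at MCE and so had to be high there, and counts without them, chosen after seeing the data, are given beside the main ones.

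**Figure D1:**
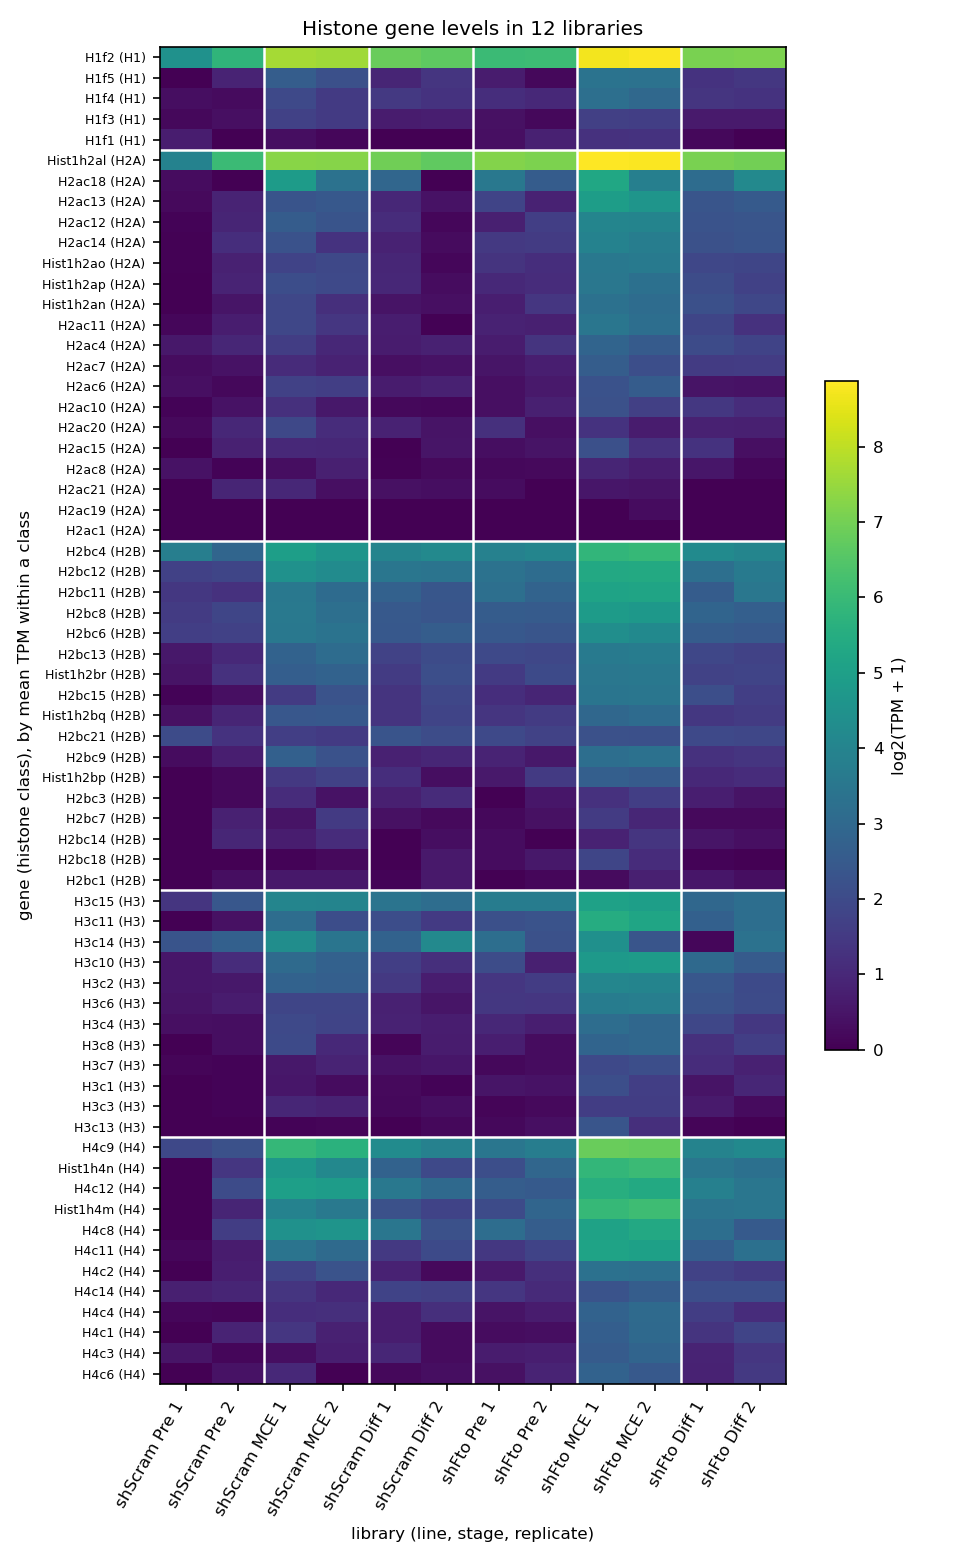
Each row is one of the 65 histone genes, grouped by class and ordered by mean TPM, each column is a library, and the colour gives log2(TPM + 1). The 2 columns of shFto at MCE are the brightest, with 59 and 58 genes at a TPM of 1 or more, and the 2 columns of shScram preadipocytes are the darkest, with 11 and 19.

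Summed over all 65 members, the shScram libraries held 76.1 and 183 TPM (Pre), 781 and 681 TPM (MCE) and 390.4 and 339.5 TPM (Diff). The shFto libraries held 359.6 and 347 TPM (Pre), 1873 and 1834 TPM (MCE) and 482 and 488 TPM (Diff). No shScram library overlapped with a shFto library of the same stage. The mean sum at MCE was 5.65 times that of preadipocytes in shScram cells and 5.25 times in shFto cells, and without replicate 1 of shScram preadipocytes the former was 4.0 times. Between the lines, the mean sum of shFto cells was 2.73 times that of shScram cells in preadipocytes (1.93 times without that replicate), 2.53 times at MCE and 1.33 times at Diff. Hist1h2al and H1f2 had the highest means of all members. Without them the ratios between the lines were 2.82, 2.51 and 1.51. In bulk RNA, fewer cells with a transcript and less of it per cell cannot be told apart.

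**Figure D2:**
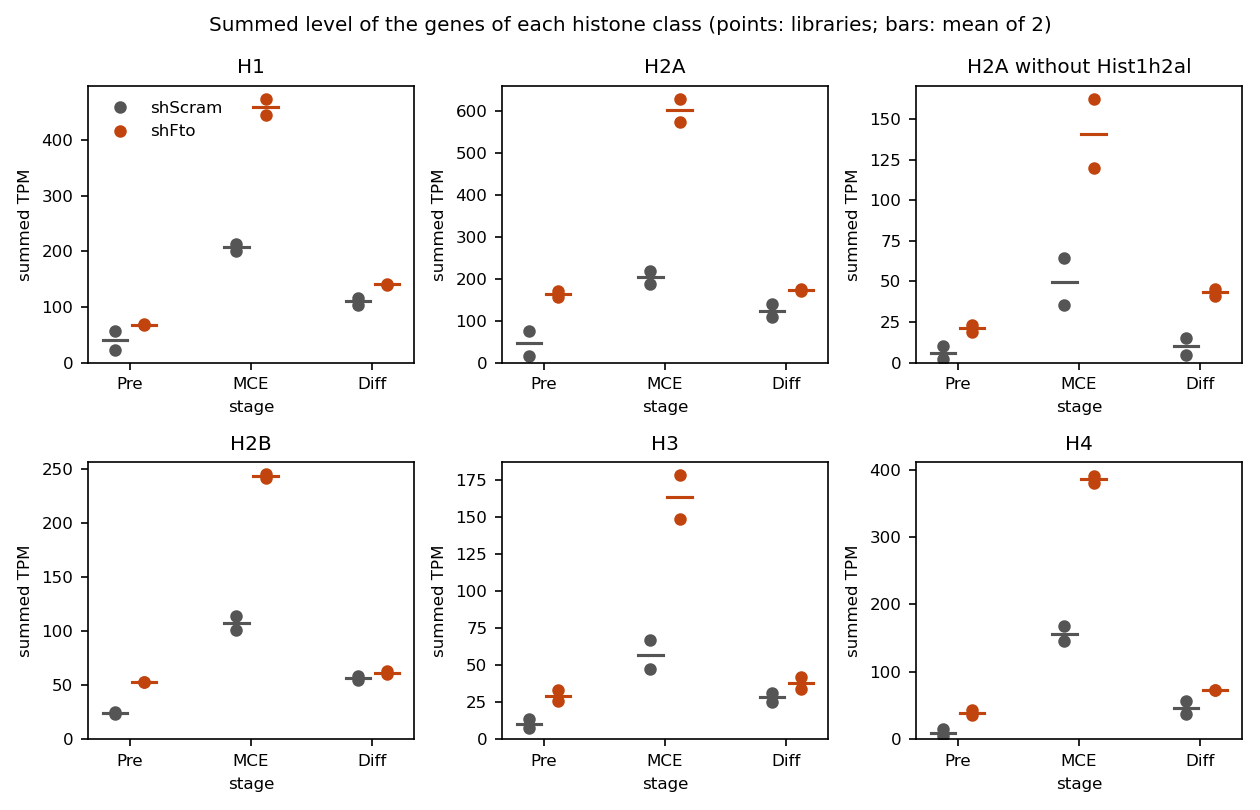
Summed TPM of the genes of each histone class in every library (points) by stage, with a bar at the mean of 2 libraries; the H2A class is also drawn without Hist1h2al. In all 6 panels both shFto libraries at MCE lie above every other library, and for H2B the lines nearly meet at Diff, at 54.4 and 58.7 TPM in shScram against 59.8 and 63.0 TPM in shFto cells.

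The summed H4 level at MCE was 16.5 times that of preadipocytes in shScram cells, and 10.6 times without replicate 1 of the latter. H4c9, the H4 gene with the highest mean, was at 2.76 and 3.6 TPM (Pre), 58.6 and 50.2 TPM (MCE) and 18.4 and 13.8 TPM (Diff) in the shScram libraries. In shFto cells it was at 10.2 and 12.6 TPM (Pre), 113 and 108 TPM (MCE) and 14.7 and 17.5 TPM (Diff). Both lines thus peaked at MCE, and at Diff their libraries overlapped. H4c12 was at 0 and 3.1 TPM (Pre), 30.8 and 28.7 TPM (MCE) and 10.8 and 7.16 TPM (Diff) in the shScram libraries. Its shFto values were 5.14 and 4.65 TPM (Pre), 45.9 and 41 TPM (MCE) and 13.5 and 10.2 TPM (Diff). H4c8 was at 21.6 and 23.2 TPM in shScram cells and 33.8 and 40.1 TPM in shFto cells at MCE. The 0 values of H4c12, H4c8, Hist1h4n and Hist1h4m all come from replicate 1 of shScram preadipocytes. Hist1h4m was at 14.2 and 11.1 TPM in shScram cells at MCE and at 60.1 and 67.5 TPM in shFto cells. H4c11 was at 9.7 and 7.31 TPM and 34.6 and 31.5 TPM in the same groups, with no overlap between the lines.

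H3c15 encodes H3 and lies in the chr3 cluster. It was at 1.59 and 4.34 TPM (Pre), 15.4 and 14.9 TPM (MCE) and 9.61 and 7.91 TPM (Diff) in the shScram libraries. In shFto cells H3c15 was at 12.1 and 12.3 TPM (Pre), 32.5 and 30.3 TPM (MCE) and 6.79 and 8.11 TPM (Diff), so that shFto cells were higher in preadipocytes and at MCE but overlapped with shScram cells at Diff. H3c11 rose from 3.51 and 3.77 TPM in shFto preadipocytes to 43.6 and 35.8 TPM at MCE, and at that stage was at 8.01 and 3.22 TPM in shScram cells. H3c10 was at 7.45 and 5.75 TPM in shScram cells and 26.4 and 28 TPM in shFto cells at MCE. H3c14 had the largest standard error of the members (1.03), with 20.9 and 4.05 TPM in shFto cells at MCE and 0.108 and 9.18 TPM at Diff. Gm20634, which contains its sequence, was at 27.9 and 46.7 TPM in the former libraries and 11.8 and 4.25 TPM in the latter.

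The H2A total was dominated by Hist1h2al, at 14.3 and 64.6 TPM (Pre), 155 and 152 TPM (MCE) and 123 and 104 TPM (Diff) in the shScram libraries. In shFto cells it was at 148 and 138 TPM (Pre), 466 and 455 TPM (MCE) and 135 and 124 TPM (Diff). H2ac13 was at 3.96 and 4.49 TPM in shScram cells at MCE against 29.5 and 23.7 TPM in shFto cells, and at Diff at 0.96 and 0.352 TPM against 4.12 and 4.65 TPM. The lines did not overlap at either stage. H2ac12 showed the same order at these stages, with 5.01 and 3.98 TPM against 15.2 and 15.1 TPM at MCE and 1.2 and 0.126 TPM against 3.87 and 4.1 TPM at Diff. H2ac18 differed widely within groups, for example 28.4 and 9.11 TPM in shScram cells at MCE.

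H2bc4 led the H2B genes and was at 12.9 and 6.41 TPM (Pre), 30.4 and 23.2 TPM (MCE) and 15.1 and 17 TPM (Diff) in the shScram libraries. Its shFto values were 13.8 and 15.5 TPM (Pre), 56.7 and 60.8 TPM (MCE) and 18 and 15.2 TPM (Diff). The lines separated at MCE and overlapped at Diff. In preadipocytes the shFto libraries were above the shScram libraries, by 13.8 against 12.9 TPM at the closest. Of all genes above 0, 21.7% showed this order. The difference did not pass the test given below. H2bc12 was at 2.27 and 2.65 TPM, 21.6 and 18.6 TPM and 10.1 and 9.77 TPM over the stages of shScram cells, and at 9.15 and 7.77 TPM (Pre), 39.9 and 41.3 TPM (MCE) and 8.4 and 11.7 TPM (Diff) in shFto cells. Of the linker histone genes, H1f2 was by far the highest, at 21.7 and 55.4 TPM (Pre), 203 and 193 TPM (MCE) and 113 and 99.8 TPM (Diff) in the shScram libraries. In shFto cells H1f2 was at 65 and 66.5 TPM (Pre), 423 and 455 TPM (MCE) and 136 and 138 TPM (Diff), above both shScram libraries at every stage. Of these differences only that at MCE passed the test given below. The other 4 H1 genes together reached 21.4 and 19.7 TPM in shFto cells at MCE and 10.5 and 7.22 TPM in shScram cells.

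**Figure D3:**
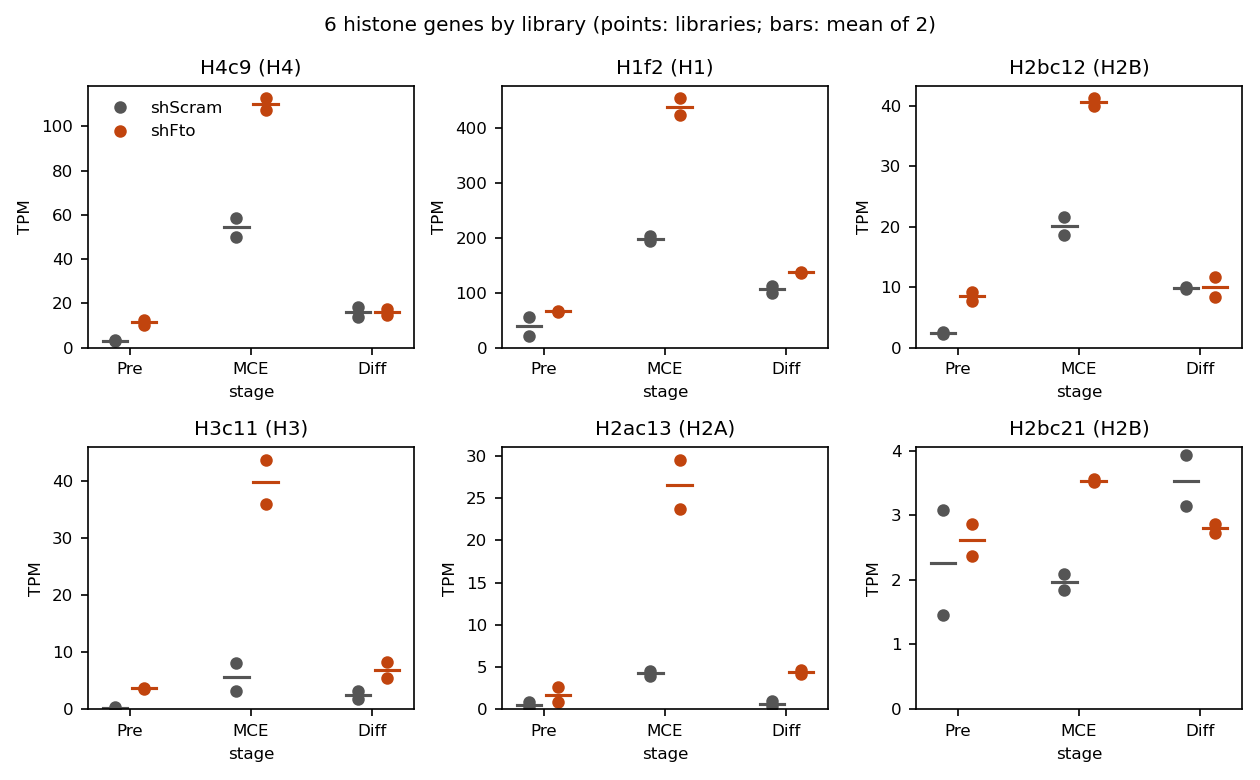
TPM of 6 histone genes by stage in shScram (grey) and shFto (orange) cells, with a point for each library and a bar at the mean of 2; the vertical axes start at 0 and differ between panels. H4c9, H1f2, H2bc12, H3c11 and H2ac13 peak at MCE in both lines, with shFto above shScram at that stage, whereas H2bc21 stays between 1.46 and 3.93 TPM.

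The 60 members that passed the filter were tested with limma on log2(TPM + 1), and fold changes are on that scale, which understates the changes of genes with low TPM. From preadipocytes to MCE, 43 of the 60 rose in shScram cells and none fell (adjusted p under 0.05), where 12.2% of all 15968 genes tested rose and 26.9% fell. In shFto cells 53 rose and none fell, against 8.8% and 19.9% of all genes. Without the 9 members that depend on shFto cells at MCE to pass the filter, 47 of 51 rose in shFto cells. At an unadjusted p under 0.05 the members were 44 up and 0 down in shScram cells (16.5% and 32.7% of all genes) and 56 up and 0 down in shFto cells (11.9% and 27.4%). The median log2 fold change of the members was 1.44 in shScram and 2.00 in shFto cells, while that of all genes tested was -0.17 and -0.18. In shScram cells the members rising were 4 of 5 H1, 11 of 15 H2A, 11 of 16 H2B, 9 of 12 H3 and 8 of 12 H4 genes. In shFto cells they were 4 of 5 H1, 13 of 15 H2A, 13 of 16 H2B, 11 of 12 H3 and all 12 tested H4 genes, and without those 9 members 4 of 4, 13 of 15, 12 of 13, 7 of 8 and 11 of 11. H2ac18 (log2 fold change 3.96, standard error 0.93), H4c12 (3.93, 0.52) and H4c8 (3.74, 0.54) had the highest values in shScram cells, followed closely by H4c9 (3.73, 0.19). Without replicate 1 of shScram preadipocytes they were at 4.11, 2.91, 2.94 and 3.59, all still called, and 40 members rose. In shFto cells, Hist1h4m (3.55, standard error 0.35), H4c11 (3.48, 0.29) and H2ac13 (3.43, 0.35) were highest. Counting libraries without a model, both MCE libraries were above both preadipocyte libraries for 54 of the 64 members above 0 in shScram cells and for 61 in shFto cells, where 13.9% and 15.2% of all genes above 0 did so. The reverse order was seen in 26.7% and 34.2% of all genes. When only the libraries of shScram preadipocytes and MCE were fitted, 9 members were called in that line.

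From MCE to Diff, 28 of the 60 fell in shScram cells and 49 in shFto cells, and none rose in either line (adjusted p under 0.05). Of all genes tested, 5.22% and 6.48% fell, and 20% and 20.2% rose. At an unadjusted p under 0.05, 40 members were lower and 2 higher in shScram cells (8.38% and 29.6% of all genes), and 52 were lower and 0 higher in shFto cells (10.3% and 28.2%). The median log2 fold change of the members was -0.88 in shScram and -1.62 in shFto cells, compared with 0.23 and 0.17 for all genes. All 5 H1 genes, 10 of 15 H2A, 12 of 16 H2B, 11 of 12 H3 and 11 of 12 H4 genes fell in shFto cells. Without the 9 members that depend on shFto cells at MCE to pass the filter, 42 of 51 fell, namely 4 of 4, 10 of 15, 11 of 13, 7 of 8 and 10 of 11. In shScram cells the counts were 2, 7, 6, 6 and 7. H4c9 fell by 1.70 (standard error 0.19, adjusted p = 0.000464 by limma) in shScram and by 2.70 (0.19, adjusted p = 5.04e-05) in shFto cells. Both differentiation libraries were below both MCE libraries for 50 of 64 members in shScram cells (12.8% of all genes) and for 58 in shFto cells (15.2%), where 36.2% and 36.1% of all genes showed the reverse. Without replicate 2 of shScram at Diff 13 members fell in shScram cells, without replicate 1 or 2 of its MCE stage 14 and 16, and with a pseudocount of 0.1 the counts were 17 and 31.

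The lines were next compared at MCE. An effect of reduced Fto cannot be told apart here from other differences between the lines. Of the 60 members, 43 were higher in shFto cells and none was lower by limma (adjusted p under 0.05), where 10.5% of all genes tested were higher and 7.26% were lower. The filter bears on this count, since 7 of the 43 were among the 9 members that passed it because of shFto cells at this stage, and without the 9 the count was 36 of 51. By an unadjusted p under 0.05, 51 were higher and 0 lower (17.8% and 12.4% of all genes). The median log2 fold change was 1.27 for the members and 0.05 for all genes. Of the 64 members above 0, both shFto libraries were above both shScram libraries for 54, against 23.7% of all genes (20.1% in the reverse order). With no filter on low values, 33 of the 64 were called. The higher members were 3 of 5 H1, 11 of 15 H2A, 9 of 16 H2B, 11 of 12 H3 and 9 of 12 H4 genes. Without the 9 members they were 2 of 4 H1, 11 of 15 H2A, 8 of 13 H2B, 7 of 8 H3 and 8 of 11 H4 genes. H3c11 had the highest log2 fold change (2.72, standard error 0.36, adjusted p = 0.00119), followed by H2ac13 (2.40, standard error 0.35, adjusted p = 0.00184) and Hist1h4m (2.25, standard error 0.35, adjusted p = 0.00287). Smaller changes were called as well, such as that of H2bc6 (0.84, standard error 0.14), whose model overlaps H1f4. H4c9 was higher by 1.01 (standard error 0.19, adjusted p = 0.0061), H2bc4 by 1.12 (0.27, adjusted p = 0.0209) and H2bc12 by 0.98 (0.17). H1f2 was higher by 1.14 (0.33, adjusted p = 0.0436), a call that was kept in 7 of 19 alternative settings, with adjusted p-values from 1.67e-06 to 0.195. Hist1h2al, at 1.58 (standard error 0.51, adjusted p = 0.066), H4c12 (0.53, standard error 0.52), H4c8 (0.70, 0.54), H2ac18 (0.46, 0.93) and H3c14 (-0.52, 1.03) did not pass the threshold. With a pseudocount of 0.1 the number of members called was 25, and it was 22, 23 and 28 without replicate 2 of shScram, replicate 1 of shFto and replicate 2 of shFto at this stage.

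**Figure D4:**
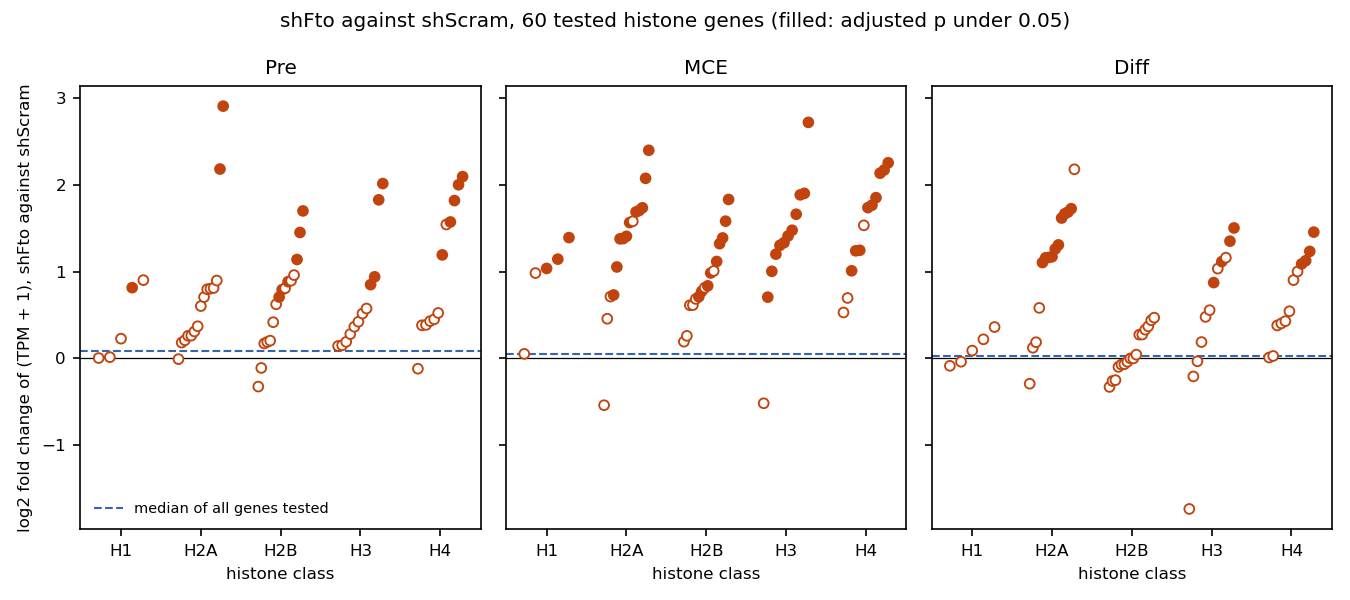
Log2 fold change of (TPM + 1) between shFto and shScram cells for the 60 tested histone genes, by class and stage, with filled points at an adjusted p under 0.05 and a dashed line at the median of all genes tested. At MCE 43 points are filled and spread over every class, while at Diff 10 of the 18 filled points are H2A genes and no H1 or H2B gene is filled.

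In preadipocytes, 18 of the 60 were higher in shFto cells and none was lower, against 15.9% and 12.3% of all genes tested. By an unadjusted p under 0.05, 28 were higher and 0 lower (25.2% and 19.3% of all genes). The median log2 fold change was 0.59, compared with 0.08 for all genes. H2ac18 (2.90, standard error 0.93, adjusted p = 0.047), Hist1h2al (2.18, standard error 0.51, adjusted p = 0.0167) and H4c8 (2.09, standard error 0.54) had the highest values among those called. H4c9 was higher by 1.57 (standard error 0.19, adjusted p = 0.000932), H2bc12 by 1.45 (0.17) and H3c15 by 1.83 (0.29). H2bc4 (0.62, standard error 0.27, adjusted p = 0.105) and H1f2 (0.90, standard error 0.33, adjusted p = 0.0688) did not pass the threshold. This comparison rests on the shScram group whose libraries differed with GC content. With GC content corrected, the median of the members was 0.16, 13 members were higher and 1 was lower, H2bc14 (-1.03, adjusted p = 0.0144). H4c9 remained at 1.24 (adjusted p = 0.000563) in that fit and H3c15 at 0.97, whereas H2bc12 was at 0.68 (adjusted p = 0.0721). There H2bc4 was at 0.76 (adjusted p = 0.0291) and H1f2 at 0.40 (adjusted p = 0.0829). Hist1h2al was at 1.03 (adjusted p = 0.00103) and H4c8 at 1.38 (adjusted p = 0.0242) in the same fit, and H2ac18, at 1.90 (adjusted p = 0.159), was no longer called. Without replicate 1 of shScram, Hist1h2al was at 1.13, H4c8 at 1.29 (adjusted p = 0.0534) and H2ac18 at 3.05 (adjusted p = 0.0581), so that of the 3 only Hist1h2al was called. Of the 64 members above 0, both shFto libraries were above both shScram libraries for 40, against 21.7% of all genes (18.1% in the reverse order). Fitting only the 4 preadipocyte libraries left 0 members called. Without replicate 1 of shScram 15 were called, without replicate 2 of shScram 30, and without replicate 1 or 2 of shFto 7 and 10.

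At Diff, 18 of the 60 were higher in shFto cells and none was lower, where 11.9% of all genes were higher and 9.31% were lower. By an unadjusted p under 0.05, 24 were higher and 0 lower (18% and 15.5% of all genes). The median log2 fold change was 0.42, compared with 0.03 for all genes. The calls were unevenly spread over the classes, with 10 of 15 H2A, 4 of 12 H3 and 4 of 12 H4 genes but 0 of 5 H1 and 0 of 16 H2B genes. The median was 1.17 for H2A and 0.00 for H2B. No H2B gene was called under any of the 19 alternative fits, while the H2A genes called numbered 2 without replicate 2 of shScram, 3 without replicate 1 or 2 of shFto, 5 with a pseudocount of 0.1 or with GC content corrected, and 6 to 10 otherwise. The difference between the classes was not tested, and many H2A genes share most of their sequence and so are not independent. Without Hist1h2al, the summed H2A level was 15.3 and 4.59 TPM in shScram against 41.1 and 45.6 TPM in shFto cells at this stage. Leaving out H2ac18 as well gave 8.69 and 4.59 TPM against 33.4 and 28.7 TPM. H2ac13 (1.72, standard error 0.35, adjusted p = 0.008), H2ac14 (1.69, standard error 0.40) and H2ac12 (1.67, standard error 0.39) had the highest values among those called. Hist1h4m was higher by 1.45 (0.35), H3c10 by 1.35 (0.40) and H4c11 by 1.23 (0.29). H3c10 was at 0.80 (adjusted p = 0.186) with GC content corrected and was no longer called. Hist1h4m (1.14, adjusted p = 0.00997) and H4c11 (1.17, adjusted p = 0.0065) were still called in that fit. H4c9 (0.01, standard error 0.19), H2bc12 (0.00, 0.17), H2bc4 (0.04, 0.27), H1f2 (0.36, 0.33) and Hist1h2al (0.19, 0.51) did not pass the threshold. Of the 64 members above 0, 31 had both shFto libraries above both shScram libraries and 6 below, against 24.8% and 23% of all genes. With GC content corrected 11 were higher and 1 was lower, H3c15 (-0.51, adjusted p = 0.00679). The count was 11 and 4 without replicate 1 and 2 of shScram, 5 and 6 without replicate 1 and 2 of shFto, and 8 with a pseudocount of 0.1. The conflicting label belongs to replicate 1 of shScram in this comparison, the library with 73.5 TPM of Fto.

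The rise to MCE and the fall after it were also compared between the lines directly. The rise was larger in shFto cells for 3 of the 60 members and smaller for none by limma (adjusted p under 0.05), against 2.52% and 2.59% of all genes. These were H4c3, H3c6 and H3c7, which were named after their values were seen. H4c3 and H3c7 are among the 9 members that would have failed the filter without shFto cells at MCE, which leaves 1 of 51. By an unadjusted p under 0.05 the rise was larger for 18, against 12.1% of all genes (10.3% for a smaller rise). The fall to Diff was larger in shFto cells for H1f4 alone, against 1.01% of all genes (1.47% in the other direction), and by an unadjusted p under 0.05 for 23, against 7.76% (7.5% in the other direction). The count for the rise was 0 to 14 and that for the fall 0 to 18 under the 8 alternatives that left out no replicate, so these counts depend on the processing. Leaving out replicate 2 of shScram preadipocytes gave 19 for the rise, 13 larger and 6 smaller, and leaving out replicate 1 gave 13, all larger. Every other omission gave 0 or 1. For the fall, 18 were called without either replicate of shScram preadipocytes, and 0 or 1 without any other library. For H4c9 the rise was smaller in shFto cells by 0.56 (standard error 0.26), which did not pass the threshold.

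H1f2, H2bc4 and H2bc21 are known to give polyadenylated transcripts also outside S phase. H1f2 and H2bc4 rose to MCE in both lines. H2bc21 did not follow this course, with 3.08 and 1.46 TPM (Pre), 2.09 and 1.85 TPM (MCE) and 3.93 and 3.14 TPM (Diff) in the shScram libraries. In shFto cells H2bc21 was at 2.87 and 2.37 TPM (Pre), 3.56 and 3.51 TPM (MCE) and 2.87 and 2.73 TPM (Diff). No comparison of H2bc21 passed the threshold, and its model neither held the stem-loop nor shared a 50-base stretch with another gene.

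Promoters from RefSeq on GRCm38.p6, from 250 bases before to 50 bases after the start of each gene, were matched to 57 members by symbol or synonym. They were searched on both strands because the octamer ATTTGCAT, the binding element of Oct1 (Pou2f1), is known from H2B promoters. It was present in 6 of 15 H2B and 6 of 16 H2A promoters, in none of the 26 H1, H3 and H4 promoters, and in 1.75% of 27025 promoters. CCAAT, on either strand, was present in all 46 H1, H2A, H2B and H3 promoters and in 3 of 11 H4 promoters, compared with 37.9% of all promoters. TATAAA was present in 34 of the 57 and in 14.2% of all promoters. H2A and H2B genes often lie head to head, so that a pair can share a match. The H2B windows of 30 bases are shown on the strand of the gene, with the octamer in capitals.
H2bc12, chr13:22035780-22035809, plus strand: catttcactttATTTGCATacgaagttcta
H2bc8, chr13:23571330-23571359, plus strand: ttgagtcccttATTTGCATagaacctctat
H2bc3, chr13:23746633-23746662, plus strand: ttgagtctcttATTTGCATaaagcctttga
H2bc14, chr13:21722008-21722037, plus strand: ctctcgtctctATTTGCATaacagcgtgta
H2bc18, chr3:96269641-96269670, plus strand: tgtgaaacctcATTTGCATacaagctctat
H2bc1, chr13:23934302-23934331, minus strand: gaattccccttATTTGCATgcacccagcac
Genes with the octamer covered the whole range of levels, since H2bc12 was among the highest H2B genes and H2bc1, a testis-type gene, stayed below 1 TPM in every library.

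Genes of other lists were set beside the histone genes. Of 12 S-phase genes, 9 were higher in shFto cells at MCE and none was lower, with a median log2 fold change of 0.96, against 10.5% and 7.26% of all genes tested. Rrm2, a subunit of ribonucleotide reductase, was at 56.4 and 57.4 TPM in shScram against 169 and 161 TPM in shFto cells (1.52, standard error 0.17, adjusted p = 0.000454). Ccne1, which drives entry into S phase, was higher by 1.63 (0.15), and Pcna, the sliding clamp of the replication fork, by 0.91 (0.12). The summed level of these 12 genes was 695 and 706 TPM in shScram against 1334 and 1332 TPM in shFto cells at MCE. Between the lines, S-phase genes thus moved with the histone genes at that stage. From preadipocytes to MCE, only Mcm5, Mcm7 and Rrm2 rose in shScram cells, 3 of 12, and none fell (12.2% and 26.9% of all genes). With GC content corrected, tried after seeing the data, 6 rose. Without replicate 1 of shScram preadipocytes, also tried then, Mcm5 was at 0.56, Mcm7 at 0.41 and Rrm2 at 1.09. Ccne1 was at -0.37 in that fit and at -0.27 with all libraries. In shFto cells all of the list but Mcm2 and Gins2 rose (8.8% of all genes). In preadipocytes the sums were 535 and 600.5 TPM in shScram against 606 and 588 TPM in shFto cells, with 3 genes higher and 2 lower (15.9% and 12.3% of all genes). Without replicate 1 of shScram preadipocytes 2 were higher and 2 lower, and with GC content corrected 3 and 2, both tried after seeing the data. At Diff the sums were 335 and 313 TPM against 398.5 and 410.5 TPM, with 4 higher (11.9% of all genes). Their part in the result for the histone genes was not tested. The adipocyte genes listed moved the other way at Diff, where 6 of 7 were lower in shFto cells (9.31% of all genes), and their sums were 1443 and 1428 TPM against 474 and 440.5 TPM.

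Replication-independent histone genes are in general transcribed through the cell cycle and mostly carry poly(A) tails. This was not checked for each of the 11 genes listed, which include H2ax and Cenpa. At MCE 3 of 11 were higher in shFto cells, namely H1f10, Macroh2a2 and H2az2, and none was lower (10.5% and 7.26% of all genes), with a median of 0.27. H1f10 was listed at 0 in all 6 shScram libraries and at 3.11 to 7.76 TPM in the shFto libraries. H3f3b, which encodes the replacement histone H3.3, was at 1022 and 1064 TPM in shScram against 987 and 1014 TPM in shFto cells (-0.06, standard error 0.11). H1f0, a linker histone gene of resting cells, was at 482 and 553 TPM against 435 and 436 TPM (-0.25, standard error 0.19). Summed, these 11 genes were at 2895 and 3154 TPM in shScram against 3096 and 3192 TPM in shFto cells. Over the stages they also rose and fell. Their sums were 1290 and 1820 TPM (Pre) and 1675 and 1568 TPM (Diff) in the shScram libraries, and 1721 and 1769 TPM (Pre) and 1780 and 1852 TPM (Diff) in the shFto libraries. From preadipocytes to MCE 6 of the 11 rose in shScram cells and 5 in shFto cells and none fell, where 12.2% and 8.8% of all genes rose, with medians of 0.98 and 0.83. The 6 were H1f0, H2az2, H2ax, H2aj, H3f3b and Cenpa, the centromeric H3, and the same genes rose without replicate 1 of shScram preadipocytes, a setting tried after seeing the data. With GC content corrected, also tried after seeing the data, 9 of the 11 rose to MCE in shScram cells. From MCE to Diff 5 fell and 1 rose in shScram cells, and 3 fell and none rose in shFto cells (5.22% and 6.48% of all genes fell).

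Of 16 genes for histone mRNA transcription, 3′ end processing and decay, 15 passed the filter, and none was called between the lines at MCE by limma (10.5% of all genes were higher and 7.26% lower). At an unadjusted p under 0.05, Lsm11, Ncbp1 and Cpsf2 were higher there, where 17.8% of all genes were. Slbp was at 73.0 and 66.5 TPM in shScram against 66.6 and 67.6 TPM in shFto cells (-0.05, standard error 0.14). In preadipocytes Lsm11, part of the U7 snRNP, and Sympk, a scaffold of the cleavage complex, were higher in shFto cells, while Slbp, Npat, Cpsf2 and Cstf2 were lower (15.9% and 12.3% of all genes). In these groups the libraries of shScram differed, with Sympk at 28.1 and 70.8 TPM against 106 and 99.8 TPM in shFto cells, and Npat at 32.0 and 15.5 TPM against 10.5 and 12.5 TPM. Slbp was at 70.1 and 54.5 TPM against 36.9 and 42.2 TPM. In fits tried after seeing the data, Npat was called neither without replicate 1 of shScram (-0.40, adjusted p = 0.137) nor with GC content corrected (-0.50, adjusted p = 0.0538), and Lsm11 not without that replicate (0.60, adjusted p = 0.0558). Slbp, Cpsf2, Cstf2 and Sympk were called in both fits, Slbp at -0.46 and -0.42 and Sympk at 0.54 and 0.59. Srrt, a partner of the cap-binding complex, was called lower in both (-0.45 and -0.57) though not in the fit of all libraries without the correction. At Diff Lsm11 was higher (0.76, 0.22), and Slbp (-0.68, 0.14) and the cap-binding gene Ncbp2 (-0.71, 0.16) were lower, where 11.9% and 9.31% of all genes were called. Among 8 histone chaperone genes, Chaf1b, a subunit of chromatin assembly factor 1 (1.29, standard error 0.15), and Asf1b (0.83, standard error 0.24) were higher in shFto cells at MCE and none was lower (10.5% and 7.26% of all genes). In preadipocytes Nasp (-0.64) and Rbbp7 (-0.54) were lower in shFto cells and none was higher, against 12.3% and 15.9% of all genes. With GC content corrected, tried after seeing the data, Rbbp7 was lower (-0.34) and Asf1a higher (0.61). In shFto cells 7 of the 8 fell from MCE to Diff, against 6.48% of all genes. Their sums went from 704 and 698 TPM to 387 and 400 TPM there, and from 528 and 545 TPM to 404 and 410 TPM in shScram cells.

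**Figure D5:**
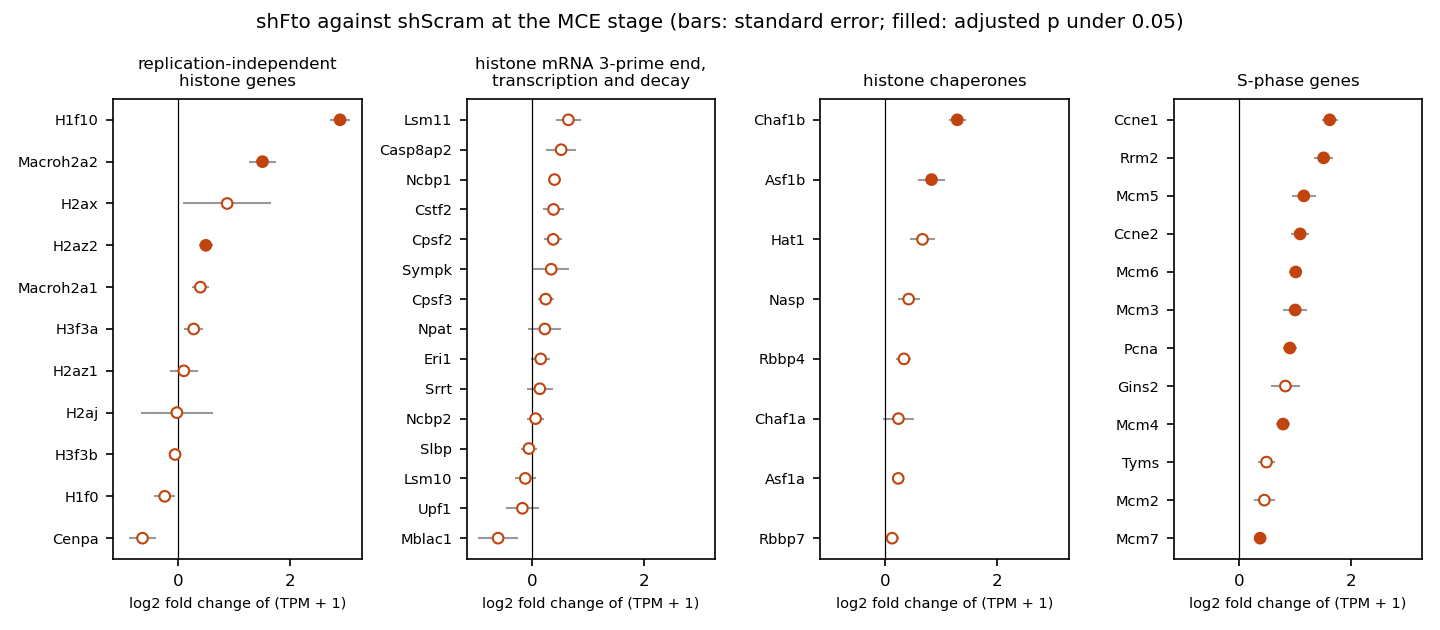
Log2 fold change of (TPM + 1) between shFto and shScram cells at MCE for genes of 4 lists, with standard errors as bars and filled points at an adjusted p under 0.05. S-phase genes have 9 of 12 points filled, chaperone genes 2 of 8, replication-independent histone genes 3 of 11, and genes for histone mRNA transcription, 3′ end processing and decay 0 of 15.

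Of other RNAs without a poly(A) tail, Rmrp, Rpph1, Rny1 and Rny3 stayed at 4.06 TPM or less in every library, Terc, the telomerase RNA, at 7.85 TPM or less, and Rn7sk, which binds P-TEFb, at 1.64 to 17.1 TPM. Malat1, a nuclear noncoding RNA whose 3′ end is a triple helix in place of a poly(A) tail, was lowest where the histone genes were highest. Malat1 was at 728 and 597 TPM (Pre), 159 and 135 TPM (MCE) and 711 and 829 TPM (Diff) in the shScram libraries. The shFto libraries held 409 and 502 TPM (Pre), 104 and 90.7 TPM (MCE) and 606 and 639 TPM (Diff). Whether RNAs without a tail were depleted when the libraries were made was not tested.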

How the data were processed

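RNA-seq libraries from 3T3-L1 cells were analysed, 2 in each of 6 groups. The methods describe fragmented total RNA, a size selection of the fragments and poly-(A) tailing before reverse transcription. They name rhein-treated cells there and do not describe the libraries of the hairpin cells separately. The days on which the hairpin cells were collected are not given there either. If RNA with poly(A) tails was selected, the values of histone genes would miss most transcripts without a tail, which was not tested. The TPM table was made by the authors with Trim Galore 0.6.5 (trimming), HISAT2 2.1.0 (alignment to GRCm38) and StringTie 2.1.4 (quantification). Counts were not used here, so the depth is unknown and DESeq2 1.30.1, which the authors used for their DEGs, was not repeated. Gene copies that share sequence can exchange reads in this estimate.

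From the deposited TPM, log2(TPM + 1) was computed. The fit used the 15968 genes that reached 1 TPM in 2 or more of the 12 libraries and was made with limma 3.58.1 in R 4.3.3 (a mean per group, eBayes with trend, 6 residual degrees of freedom), two-sided, with Benjamini-Hochberg adjustment over all of them. The replicate number was tried as a block. Alternatives were another pseudocount, other filters, median-ratio scaling, the libraries in the fit, a GC correction, the fold and p thresholds of the study, and each library left out. The fit was tested on simulated data. Sequences were searched with Python 3.11.15. Genes named are the 20 members with the highest mean TPM, the 3 highest and 3 lowest called log2 fold changes in each of 7 comparisons, the highest of each class and the genes of fixed lists. Other members are named where a small count or an exception needed it, after their values were seen. Members and lists were chosen with earlier results of these data known.

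Rhein treatment and RNA immunoprecipitation were not analysed here.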

Additional observations from a re-analysis of the deposited data

Results flagged for a closer look

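A test of the difference between the lines singled out 4 histone genes, by limma on log2(TPM + 1) over all 15968 genes. They were 3 of 60 members for the rise and 1 of 60 for the fall, against 2.52% and 1.01% of all genes. H4c3 and H3c7 would have failed the filter without shFto cells at MCE and so had to be high there. Without the 9 such members, 1 of 51 was called for the rise. The rise from preadipocytes to MCE was larger in shFto than in shScram cells for H4c3 by 1.78 (adjusted p = 0.0434), for H3c6 by 1.03 (adjusted p = 0.0433) and for H3c7 by 1.18 (adjusted p = 0.0336). H4c3 was at 0.256 and 0.676 TPM in shScram against 4.80 and 6.34 TPM in shFto cells at MCE. H3c6 was at 2.62 and 2.66 TPM against 12.1 and 12.7 TPM, and H3c7 at 0.474 and 0.835 TPM against 2.89 and 3.42 TPM. For H1f4 the change from MCE to Diff differed by -1.43 (adjusted p = 0.0288), with 2.87 and 1.82 TPM in shScram against 8.37 and 7.02 TPM in shFto cells at MCE and 1.74 and 1.46 TPM against 1.61 and 1.45 TPM afterwards. H1f4 overlaps H2bc6 on the same strand, so its value is uncertain.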

How the results depend on the processing

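Counts are of histone genes called at an adjusted p under 0.05 by limma. Leaving out each library in turn gave 7 to 30 (18 with all libraries) between the lines in preadipocytes, 22 to 51 (43) at MCE and 4 to 22 (18) at Diff. The ranges were 37 to 46 (43) for the rise to MCE and 13 to 41 (28) for the fall after it in shScram cells, 46 to 56 (53) and 36 to 53 (49) in shFto cells, and 0 to 19 (3) and 0 to 18 (1) for the differences between the lines in the rise and the fall. A lone library of a group was assumed to vary like the other groups. The count of 19 held 13 higher and 6 lower genes.

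A pseudocount of 0.1 gave 25 at MCE and 8 at Diff between the lines, 17 and 31 for the fall in shScram and shFto cells, and 0 for both differences. Without a filter, 11 were called between the lines in preadipocytes and 11 at Diff, and 1 and 0 for the differences in the rise and the fall. Fitting only the libraries of the contrast gave 0 in preadipocytes, 9 for the rise in shScram cells, and 0 and 18 for the differences. The difference in the rise was called for 1 gene with a filter of 5 TPM, 5 with median-ratio scaling, 14 with the GC correction and 13 at the thresholds of the study, and the difference in the fall for 8 with the GC correction and 14 at those thresholds. The cause was not tested. Without the members that failed the filter when the highest group was left out, a count added after seeing the data, 36 were called at MCE and 1 for the difference in the rise. The scaling moved the median of all genes by over 0.1 between stages, from -0.17 to 0.00 for the rise in shScram cells, and the histone median was then 1.63.

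With the replicate number as a block, 19, 40 and 16 genes were called between the lines over the stages, and 0 for the difference in the rise. Deviations of same-numbered libraries correlated at -0.29 to 0.172 over 15 pairs of groups, 2 of them over 0.1. With 2 libraries a group, and with GC trends between them, this cannot show whether same-numbered libraries shared a culture or batch. The 111 calls of named genes had 2109 alternative values in all, of which 257 were no longer past the threshold and 0 were reversed. TPM keeps no depth, so precision at low values cannot be given, and 2 libraries a group limit it further.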
